A study of Homo sapiens with 6 samples.

Results

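Glutathione S-transferases (GSTs) were followed in LNCaP, a line of human prostate cancer cells that responds to androgens, through 10 genes chosen by name: GSTP1, GSTM2, GSTM3, GSTM4, GSTA4, GSTK1, GSTO1, GSTZ1, MGST1 and MGST2. All 10 were among the 23354 genes of the deposited count table. RNA was sequenced from 3 libraries of cells given dihydrotestosterone (DHT), a potent androgen, at 1 nM, and from 3 given the same DHT together with an extract of white button mushroom (WBM, Agaricus bisporus) at 3 µL/mL, both for 48 h. Every library therefore comes from androgen-treated cells of this 1 line, and cells without DHT were not analysed here. The labels do not say whether the DHT group received a vehicle in place of the extract, nor whether the triplicates were separate cultures, and a p-value here measures no more than the spread among these libraries, which may be technical.

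GSTs join the tripeptide glutathione to reactive electrophiles, which can then be exported from the cell, and several also reduce peroxides or isomerise small molecules. The soluble enzymes fall into classes named by Greek letters (pi, mu, alpha, omega, zeta), the kappa enzyme lies in mitochondria and peroxisomes, and the microsomal GSTs (MGST genes) are unrelated membrane proteins of the MAPEG family. In prostate cancer the family is best known for the pi gene, GSTP1, whose promoter CpG island is methylated in most tumours and in LNCaP cells, where the gene is silent. Many GST genes of rodents and humans are induced by the stress-responsive factor NRF2 through antioxidant response elements.

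The promoters of 4 members are shown because they differ in CpG content and in matches to that element. Each window runs from 250 bases before to 50 bases after the annotated start, as given by RefSeq on GRCh38.p14, 5′ to 3′ on the gene's own strand. In the first pair, GSTP1 (chr11:67583562-67583861, plus strand) and GSTM3 (chr1:109740989-109741288, minus strand), capitals mark CpG dinucleotides. In the second pair, GSTA4 (chr6:52995235-52995534, minus strand) and GSTO1 (chr10:104254642-104254941, plus strand), capitals mark the antioxidant response element core TGACNNNGC.
GSTP1: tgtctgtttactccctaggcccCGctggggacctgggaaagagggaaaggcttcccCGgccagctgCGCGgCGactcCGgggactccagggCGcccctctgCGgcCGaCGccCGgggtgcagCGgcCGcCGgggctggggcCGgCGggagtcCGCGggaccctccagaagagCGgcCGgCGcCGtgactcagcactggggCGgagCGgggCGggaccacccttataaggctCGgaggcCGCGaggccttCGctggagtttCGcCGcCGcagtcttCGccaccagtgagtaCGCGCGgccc
GSTM3: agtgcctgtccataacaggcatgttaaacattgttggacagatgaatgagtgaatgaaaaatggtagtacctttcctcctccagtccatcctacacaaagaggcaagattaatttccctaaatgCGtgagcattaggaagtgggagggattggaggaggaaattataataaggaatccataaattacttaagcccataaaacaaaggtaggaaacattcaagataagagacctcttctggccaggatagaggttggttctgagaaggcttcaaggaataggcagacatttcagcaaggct
GSTA4: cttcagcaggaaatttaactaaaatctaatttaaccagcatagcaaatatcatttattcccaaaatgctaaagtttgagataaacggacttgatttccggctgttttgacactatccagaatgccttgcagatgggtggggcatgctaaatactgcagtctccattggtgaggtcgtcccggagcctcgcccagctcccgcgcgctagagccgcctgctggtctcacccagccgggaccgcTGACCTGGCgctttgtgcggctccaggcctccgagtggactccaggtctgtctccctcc
GSTO1: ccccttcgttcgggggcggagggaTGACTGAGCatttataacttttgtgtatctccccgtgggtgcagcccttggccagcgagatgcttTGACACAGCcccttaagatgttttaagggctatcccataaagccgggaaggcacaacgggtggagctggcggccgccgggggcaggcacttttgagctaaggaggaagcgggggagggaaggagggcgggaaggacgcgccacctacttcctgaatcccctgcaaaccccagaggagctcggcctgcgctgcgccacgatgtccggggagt

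The GSTP1 window held 36 CpGs, more than 87.3% of the 35114 RefSeq promoter windows of that length, whereas the GSTM3 window held 1. GSTZ1 had 33 CpGs and the windows of GSTA4 and GSTO1 had 14 and 19, against a median of 14 over all windows. Searched on both strands, TGACNNNGC occurred in a window of 4 of the 9 members found in the RefSeq table, GSTP1, GSTA4, GSTO1 and MGST1, and in 13.3% of all windows. The GSTP1 match, TGACTCAGC, begins 66 bases before the start and overlaps TGACTCA, the AP-1 motif. For MGST1, which has 3 windows in the table, the match lay in 1 of them, beginning 30 bases after the start. The xenobiotic response element core GCGTG, on either strand, occurred in a window of 3 members (GSTM3, GSTM4 and GSTZ1) and in 36.5% of all windows. The member figures count a gene with a match in any of its windows, while the percentages count single windows, so they are unlike measures. A match describes these letters and is not a measured binding site.

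GSTP1 (chromosome 11, 67351066 to 67354124 on hg19, plus strand) was at the limit of detection in both groups. The 3 DHT libraries (replicates 1 to 3) held 1, 1 and 2 of its reads and the 3 DHT+WBM libraries held 5, 0 and 0, in totals of 19127357 to 21490953 counts. The 5 reads of the DHT+WBM group all came from replicate 1, and the groups overlapped. Pooled over 3 libraries, the level was 0.0652 CPM (counts per total, scaled so that libraries compare), with an exact Poisson 95% interval of 0.0178 to 0.167, in DHT, and 0.0810, with an interval of 0.0263 to 0.189, in DHT+WBM. The intervals cover counting error only. With 9 reads in all 6 libraries GSTP1 did not pass the low-count filter. When genes were tested without that filter, its edgeR adjusted p was 0.863, so no difference was detectable at this depth. Even at the upper limit of its interval, GSTP1 in DHT lay 292-fold below GSTM3 per kilobase of gene length.

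Genes on both sides of GSTP1 were expressed. Among the 3 genes annotated on each side of GSTP1 in the table, NDUFV1, a subunit of respiratory complex I, stood at 124 ± 4.64 CPM in DHT (SD, n = 3) and 114 ± 2.28 CPM in DHT+WBM. CDK2AP2 stood at 61.5 ± 2.58 CPM, PITPNM1 at 43.0 ± 2.84 CPM and NUDT8 at 29.9 ± 2.35 CPM in DHT. In DHT+WBM the same genes stood at 42.5 ± 3.14, 62.7 ± 1.16 and 29.7 ± 1.48 CPM. By edgeR, PITPNM1 was called higher, CDK2AP2 and NDUFV1 were called lower and NUDT8 was not called. The other 2, CABP2 and the pseudogene DOC2GP, had no read in any library.

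The mu-class genes GSTM2 and GSTM4 also had few or no reads. GSTM2 (chromosome 1, 110198698 to 110226619, plus strand) had 6, 4 and 1 reads in DHT and 9, 3 and 6 in DHT+WBM, with overlapping groups and, without the filter, an edgeR adjusted p of 0.411. GSTM4 (chromosome 1, 110198698 to 110208123, plus strand) had 0 reads in every library, which in a single library allows up to 3 reads, or 0.138 to 0.154 CPM. The table places GSTM4 wholly inside the span of GSTM2, on the same strand, and gives both the same first base. In addition, 37.9% of the 50-base windows of GSTM2 coding transcripts (GENCODE 29) occurred in the transcripts of another gene, most often GSTM1, and so did 16.9% of those of GSTM4. Whether reads of these genes were lost in counting was not tested, so the values of GSTM2 and GSTM4 are uncertain. For GSTP1, 0% of the windows were shared with another gene.

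The other 7 members had at least 365 reads in each library, passed the filter and were tested with all 13466 genes that did. With the extract GSTA4, MGST1, GSTK1, GSTM3 and GSTO1 rose and GSTZ1 and MGST2 fell, by edgeR's quasi-likelihood test at an adjusted p under 0.05. In this comparison 58.2% of all tested genes were called, 29.2% higher and 29% lower, so calls were common. The members' median log2 fold change was 0.39, against 0.00 over all genes tested. For all 7 the libraries of the groups did not overlap, which also held for 62.2% of tested genes. In RNA from a whole culture, fewer cells of a type and less RNA per cell cannot be told apart.

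**Figure D1:**
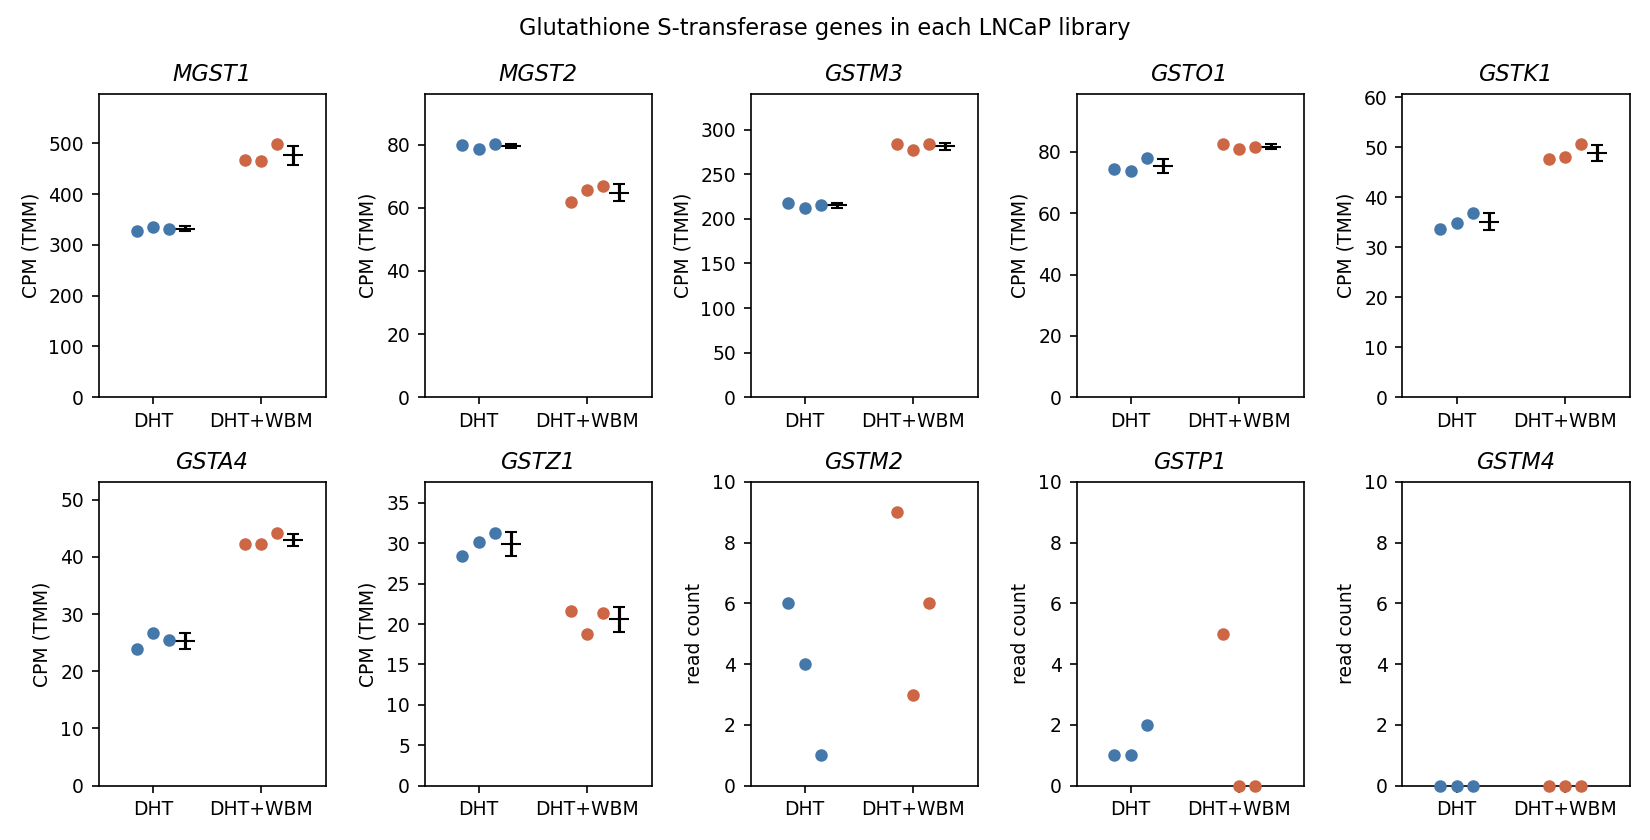
Each panel shows 1 gene with the 6 libraries as points (blue, DHT; orange, DHT+WBM), in TMM-normalised CPM with the mean and SD beside them, or as raw read counts for GSTM2, GSTP1 and GSTM4. The groups are separate in the 7 abundant genes, while GSTM2 and GSTP1 hold at most 9 and 5 reads in a library and GSTM4 holds 0.

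GSTA4 had the largest change of the 7. GSTA4 (chromosome 6, 52842746 to 52860178, minus strand) encodes the alpha-class enzyme that conjugates 4-hydroxynonenal, an aldehyde made when lipids are oxidised. In the order of replicates 1 to 3, its levels were 23.8, 26.6 and 25.4 CPM in DHT and 42.3, 42.3 and 44.3 CPM in DHT+WBM. All 3 libraries with extract lay well above the highest without it, and the fitted rise was 1.70-fold (log2 fold change 0.77 ± 0.06 SE, adjusted p = 3.23e-14 by edgeR). Of all tested genes, 9.77% had a larger change in either direction. The 3 tested genes whose centred log2 levels over the 6 libraries lay nearest to those of GSTA4 were SMAD3, ALDH3A2 and PLEKHA2, at Euclidean distances of 0.0787, 0.0806 and 0.0829. Their log2 fold changes were 0.78, 0.78 and 0.74, close to that of GSTA4 because the genes were picked by this distance. A link between them and GSTA4 was not tested. ALDH3A2, which encodes a fatty aldehyde dehydrogenase, stood at 229 ± 9.03 CPM in DHT and 394 ± 4.51 CPM in DHT+WBM.

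Within the alpha cluster on chromosome 6, GSTA4 was the only GST gene above 1 CPM in any group's mean. GSTA1, GSTA3 and GSTA5 did not pass the filter. GSTA2 stood at 0.668 ± 0.247 CPM in DHT and 0.806 ± 0.128 CPM in DHT+WBM, with a log2 change of 0.27 ± 0.32 (edgeR adjusted p = 0.471).

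In the mu cluster on chromosome 1, GSTM3 was the abundant gene by these counts, in which the values of GSTM1, GSTM2 and GSTM4 are uncertain. GSTM3 (chromosome 1, 110276554 to 110283660) lies on the minus strand, opposite to the other mu-class genes named here. Only 1.39% of its 50-base transcript windows were shared with another gene. Over 7107 bases its span overlaps LOC100133331 on the same strand, which had 14 reads in DHT and 13 in DHT+WBM. It also overlaps LOC100132062 on the opposite strand, which had 0 reads. Whether reads of GSTM3 were lost to these overlaps was not tested. Its levels were 218, 212 and 216 CPM in DHT and 283, 277 and 284 CPM in DHT+WBM. The SD within the groups was 3.02 and 3.78 CPM, and the rise of 1.31-fold (log2 fold change 0.39 ± 0.04, adjusted p = 2.13e-11 by edgeR), was far larger. GSTM1, at no more than 2 reads in a library, and GSTM5, at no more than 3, did not pass the filter. Of the GSTM2 windows 28.8% occurred in GSTM1 transcripts, and whether reads of GSTM1 were lost in counting was not tested.

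GSTK1 (chromosome 7, 142960522 to 142966222, plus strand), the kappa enzyme, rose as well. It stood at 33.7, 34.8 and 36.9 CPM in DHT and 47.7, 48.1 and 50.7 CPM in DHT+WBM. The fitted rise was 1.39-fold (log2 fold change 0.47 ± 0.05, adjusted p = 1.32e-09 by edgeR).

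GSTO1 showed the smallest change among the called members. GSTO1 (chromosome 10, 106013952 to 106027222, plus strand) encodes the omega enzyme, whose active site uses a cysteine and which acts mainly as a thiol transferase and reductase. Its levels were 74.5, 73.7 and 78.0 CPM in DHT and 82.5, 80.9 and 81.5 CPM in DHT+WBM. The groups did not overlap, but the rise was only 1.08-fold (log2 fold change 0.11 ± 0.04, adjusted p = 0.0259 by edgeR), and 69.6% of tested genes had a larger change. The call was lost when any library other than DHT replicate 3 was left out, with adjusted p of 0.0587 to 0.110, and also with DESeq2 (adjusted p = 0.0561) and without the low-count filter (edgeR adjusted p = 0.0655). Its neighbour GSTO2, on the same strand of chromosome 10, rose from 2.01 ± 0.27 to 3.55 ± 0.11 CPM (log2 fold change 0.82 ± 0.16, adjusted p = 5.15e-05 by edgeR). The difference between the changes of GSTO1 and GSTO2 was not tested.

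GSTZ1 moved the other way. GSTZ1 (chromosome 14, 77787230 to 77797940, plus strand) is the zeta enzyme, also known as maleylacetoacetate isomerase, which works in the breakdown of tyrosine and phenylalanine rather than mainly in conjugation. It stood at 28.4, 30.1 and 31.3 CPM in DHT and 21.6, 18.7 and 21.3 CPM in DHT+WBM. The highest library with extract was below the lowest without it. The fall was 1.45-fold (log2 fold change -0.54 ± 0.07, adjusted p = 7.71e-09 by edgeR).

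The microsomal enzymes split. MGST1 (chromosome 12, 16500076 to 16530123, plus strand) encodes a trimeric protein of the endoplasmic reticulum and outer mitochondrial membrane that conjugates electrophiles and reduces lipid hydroperoxides. Its levels were 327, 336 and 332 CPM in DHT and 467, 465 and 498 CPM in DHT+WBM. The DHT libraries lay close together and all 3 libraries with extract lay far above them, a rise of 1.44-fold (log2 fold change 0.52 ± 0.04, adjusted p = 1.28e-14 by edgeR).

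MGST2 (chromosome 4, 140586922 to 140661899, plus strand), whose enzyme can make leukotriene C4 as well as conjugate glutathione, fell. Its levels were 79.9, 78.8 and 80.2 CPM in DHT and 61.8, 65.7 and 67.0 CPM in DHT+WBM, a fall of 1.23-fold (log2 fold change -0.30 ± 0.05, adjusted p = 7.81e-07 by edgeR). Over 24354 bases its span overlaps MAML3 on the opposite strand, and without a known strand setting reads from the overlap cannot be assigned. MAML3 stood at 21.8 ± 0.72 CPM in DHT and 21.4 ± 1.07 CPM in DHT+WBM and was not called (log2 fold change -0.03 ± 0.07). MGST3, the third microsomal GST, stood at 50.6 ± 1.97 and 53.6 ± 1.52 CPM and was not called either, with a log2 change of 0.08 ± 0.05 (edgeR adjusted p = 0.159).

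**Figure D2:**
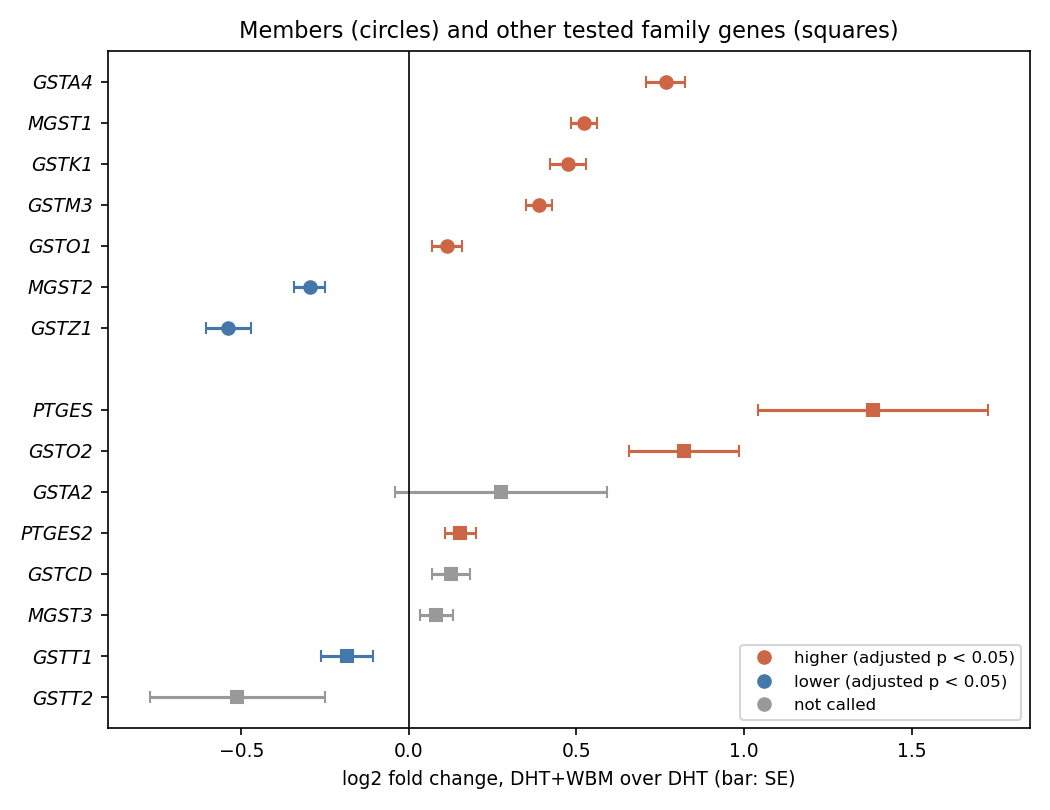
Log2 fold changes of DHT+WBM over DHT with SE bars are drawn for the 7 tested members (circles) and the 8 tested other family genes (squares), coloured by the edgeR call. GSTA4 leads the members at 0.77 and GSTZ1 is lowest at -0.54, while PTGES at 1.38 and GSTA2 at 0.27 carry the widest bars.

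To set the members' levels in order, CPM was divided by the gene length given in the table, in kilobases. In DHT the order was MGST1 at 106 ± 1.37 CPM per kb, MGST2 at 60.0 ± 0.57, GSTO1 at 57.9 ± 1.74, GSTM3 at 51.3 ± 0.72, GSTK1 at 28.8 ± 1.33, GSTA4 at 18.3 ± 1.02 and GSTZ1 at 17.5 ± 0.86 (SD, n = 3). The libraries of MGST2 and GSTO1 overlapped, as did those of GSTA4 and GSTZ1, so these neighbours did not differ beyond their spread. The other neighbours among the 7 were separate. GSTM2 and GSTP1 followed, overlapping each other at 0.0759 and 0.0686 CPM per kb, and GSTM4 was listed at 0.

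With the extract the order was MGST1 at 153 ± 6.01 CPM per kb, GSTM3 at 67.1 ± 0.90, GSTO1 at 62.6 ± 0.64, MGST2 at 48.8 ± 2.04, GSTK1 at 40.0 ± 1.32, GSTA4 at 31.1 ± 0.81 and GSTZ1 at 12.0 ± 0.93. No neighbours among the 7 overlapped. GSTM3 and MGST2 had exchanged places, and GSTA4 and GSTZ1, which overlapped in DHT, stood apart. The exchange rests on the deposited lengths. Without division by length, GSTM3 lay above MGST2 in both groups, at 215 against 79.6 CPM in DHT and 281 against 64.8 CPM in DHT+WBM.

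**Figure D3:**
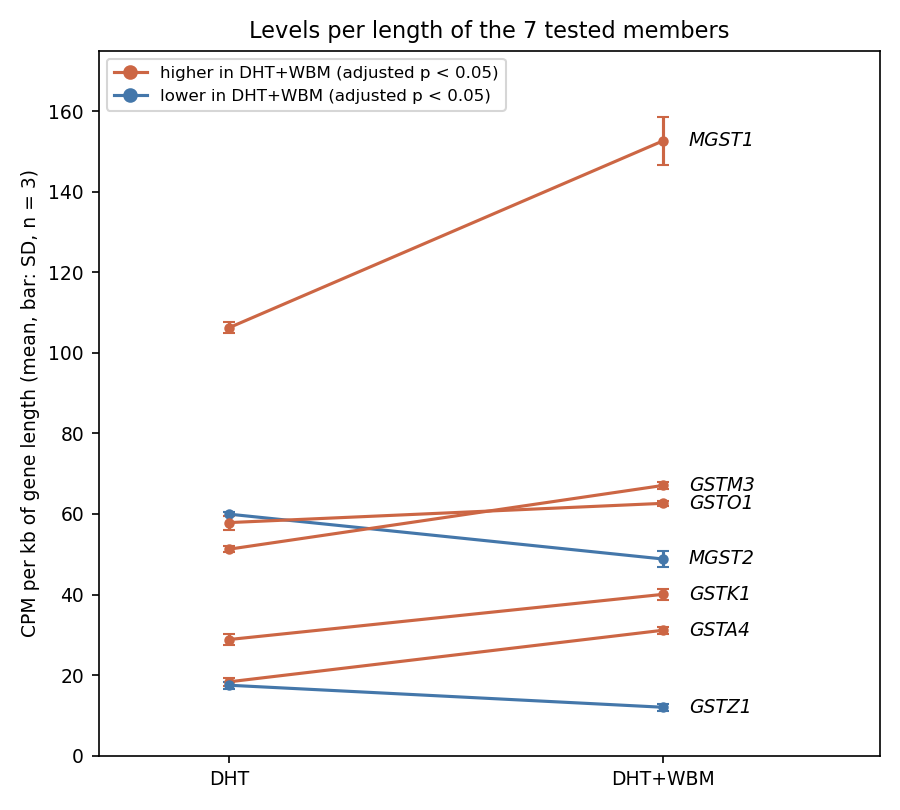
Mean level per kilobase of gene length with SD (n = 3) is joined between DHT and DHT+WBM for each of the 7 tested members, in orange for those called higher and blue for those called lower. MGST1 lies above all others in both groups, and the lines of GSTM3 and MGST2 cross.

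Summed over the 10 members per kilobase, the level was 340 ± 4.68 CPM per kb (SD, n = 3) without the extract and 415 ± 10.3 CPM per kb with it, with every library with extract above every library without it. MGST1 and GSTM3 together made up 46.3% of this sum in DHT and 53.0% in DHT+WBM.

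Of 17 further family genes, 16 were in the table and 8 were tested, of which 3 were higher, 1 was lower and 4 were not called, median log2 fold change 0.14. Besides GSTO2, the higher genes were the prostaglandin E synthases PTGES and PTGES2. PTGES, a MAPEG protein, went from 0.426 ± 0.114 to 1.10 ± 0.48 CPM (log2 fold change 1.38 ± 0.34, adjusted p = 0.000738 by edgeR). It had 7, 11 and 8 reads in DHT and 17, 16 and 36 in DHT+WBM. PTGES thus passed the low-count filter only through the group where it was high, and its call is uncertain. With the filter of 1 CPM in 3 libraries it was not tested. PTGES2 had a log2 change of 0.15 ± 0.05, and its call was lost without DHT+WBM replicate 1 (edgeR adjusted p = 0.0553). GSTT1, of the theta class, was the lower gene, at 20.9 ± 1.45 CPM in DHT and 18.4 ± 2.29 CPM in DHT+WBM. Its libraries overlapped, its edgeR adjusted p was 0.0389, and the call was lost when DHT replicate 1 (adjusted p = 0.0689) or 3 (0.162), or DHT+WBM replicate 2 (0.203) or 3 (0.123), was left out, under upper-quartile factors (0.0976), with library totals only (0.128) and with DESeq2 (adjusted p = 0.108). GSTT2, with a log2 change of -0.51 ± 0.26, has a near-identical copy and is uncertain. Without DHT replicate 3 its log2 fold change was -0.26 (edgeR adjusted p = 0.475), and without DHT replicate 1 it was -0.78 (edgeR adjusted p = 0.00953). GSTCD, at 0.13 ± 0.06 on the log2 scale, missed the threshold (edgeR adjusted p = 0.0502) and passed it in 5 of 15 alternatives.

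The RNA of genes for glutathione supply changed unevenly, and glutathione itself was not measured. Of 9 tested genes of glutathione synthesis and supply, 4 were higher, 3 were lower and 2 were not called, median log2 fold change 0.02. GCLM, the modifier subunit of glutamate-cysteine ligase, rose from 71.4 ± 4.70 to 208 ± 6.50 CPM (log2 fold change 1.54 ± 0.05, adjusted p = 5.66e-27 by edgeR). GCLC, the catalytic subunit of the same enzyme, fell from 48.5 ± 0.53 to 43.4 ± 0.64 CPM (log2 fold change -0.16 ± 0.05, adjusted p = 0.00661 by edgeR). GGCT, gamma-glutamylcyclotransferase, fell by 0.34 on the log2 scale. OPLAH, 5-oxoprolinase, rose by 0.50 and SLC3A2, the heavy chain of the cystine transporter, fell by 0.19. The uncalled genes were SLC7A11, that transporter's light chain, at 0.02, and CHAC2, at -0.15.

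Of 10 tested genes for enzymes that reduce oxidised glutathione or supply NADPH, 7 were higher and 0 lower, median log2 fold change 0.22. ME1, malic enzyme, rose from 169 ± 4.49 to 297 ± 2.75 CPM (log2 fold change 0.81 ± 0.04). IDH1, IDH2 and NNT were not called, with log2 fold changes of -0.06, 0.00 and 0.00. Of 5 tested glutathione peroxidase genes, 3 were higher and 1 was lower, with a median of 0.33. GPX1 rose from 98.8 ± 3.54 to 157 ± 7.28 CPM and GPX2 from 1.24 ± 0.42 to 3.90 ± 0.49 CPM, PRDX6, a peroxiredoxin that uses glutathione, fell by 0.15 on the log2 scale, and GPX8 was not called (-0.02).

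Genes for other enzymes that use glutathione were mixed, with 3 of 9 lower, 1 higher, 5 not called and a median of -0.09. GLO1, the first glyoxalase, fell from 938 ± 35.0 to 744 ± 5.06 CPM and the mitochondrial glutaredoxin gene GLRX2 from 34.2 ± 1.90 to 26.0 ± 0.76 CPM, whereas HAGH, the glyoxalase that follows GLO1, rose by 0.21 on the log2 scale. In the mercapturate pathway, which trims exported conjugates, 5 of 11 genes were tested, with 2 higher, 1 lower and a median of 0.01. GGT7 and GGT6 rose, with log2 fold changes of 0.31 and 0.93, and GGT1 fell by 0.35. The call of GGT6, a gene near 1 CPM, was lost without DHT replicate 2 (edgeR adjusted p = 0.0623). GGT6 had 16, 7 and 16 reads in DHT and 24, 26 and 25 in DHT+WBM. It thus passed the low-count filter only with the group where it was high, and its call is uncertain. LAP3 and ACY1 were not called, at -0.10 and 0.01.

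Of 5 tested exporters of conjugates, 2 were higher, 2 were lower and 1 was not called, with a median of 0.01. ABCC4 fell from 938 ± 21.7 to 614 ± 21.3 CPM, a log2 change of -0.61 ± 0.04, and ABCG2 rose from 4.58 ± 0.13 to 7.86 ± 1.03 CPM. ABCC5 rose by 0.27. ABCC1, the classical exporter of glutathione conjugates, fell by 0.15 on the log2 scale, a call that was lost without DHT replicate 1 (-0.09, edgeR adjusted p = 0.0668).

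Of 12 genes of NRF2 control and its reference targets, 8 were higher, 1 was lower and 3 were not called, median log2 fold change 0.31. NQO1 and HMOX1 had the smallest adjusted p of those that rose, with log2 fold changes of 1.89 ± 0.04 and 2.51 ± 0.06, against 0.77 for GSTA4, the largest member change. MAFK, a small partner of NRF2, fell by 0.24. KEAP1, BACH1 and TXN were not called, at 0.03, 0.03 and 0.04.

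Because GSTP1 is known for promoter methylation, 12 genes of DNA methylation and methyl-CpG reading were also counted, with 4 higher, 4 lower, 4 not called and a median log2 fold change of -0.07. UHRF1 and DNMT1, which maintain methylation after replication, fell from 16.5 ± 1.39 to 6.49 ± 0.77 CPM and from 205 ± 8.07 to 142 ± 4.04 CPM. DNMT3A and TET1 rose, by 0.20 and 0.23 on the log2 scale. The DNMT3A call was lost without DHT+WBM replicate 1 (edgeR adjusted p = 0.0692), and the TET1 call when DHT replicate 3 (0.115), or DHT+WBM replicate 1 (0.0561) or 3 (0.0517), was left out and with DESeq2 (adjusted p = 0.0833). TET3, MBD1, MBD2 and MBD4 were not called, at -0.08, -0.05, -0.09 and -0.06. DNA methylation itself was not measured.

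**Figure D4:**
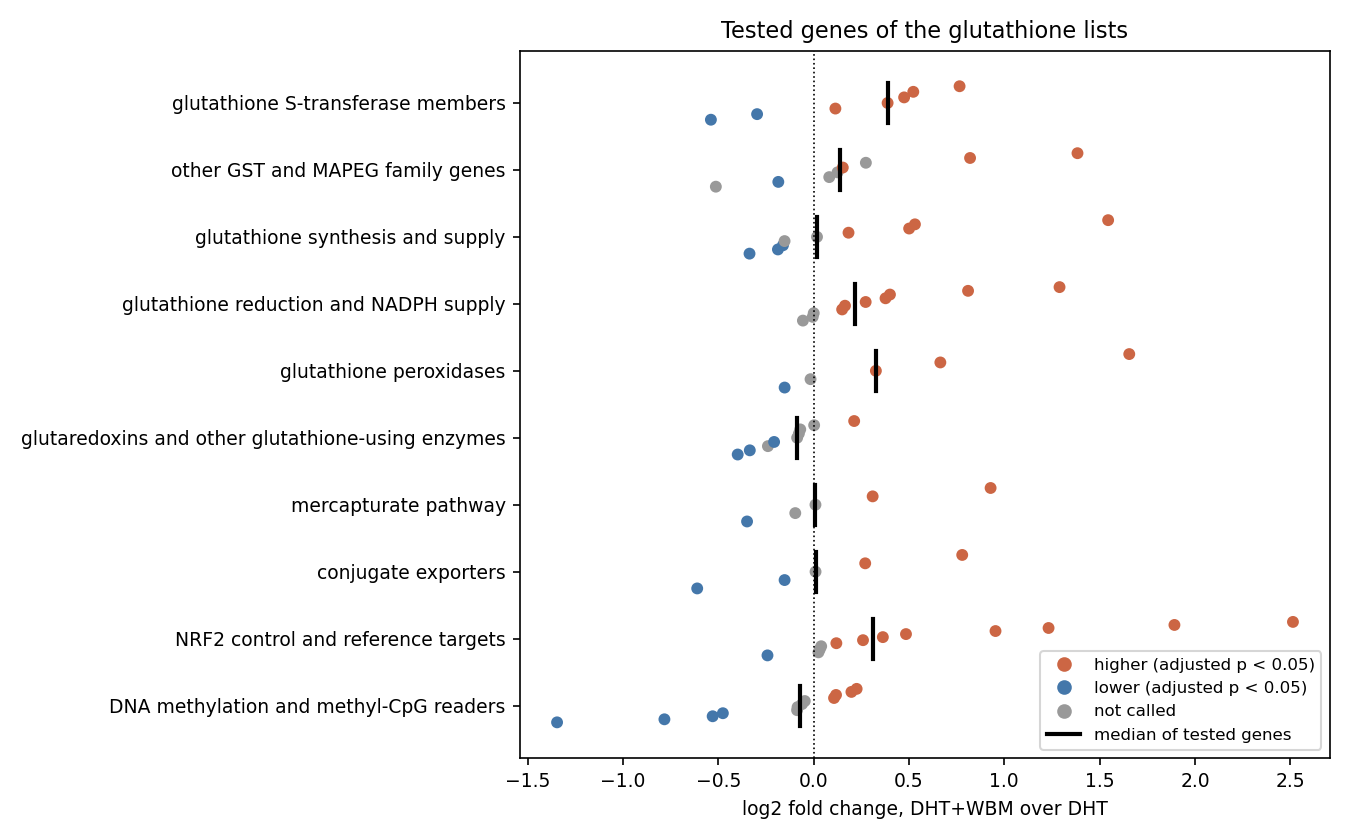
Each point is the log2 fold change of 1 tested gene, DHT+WBM over DHT, by list, coloured by the edgeR call, with a black bar at the list's median. The members' median lies at 0.39 and the medians of the other lists lie between -0.09 and 0.33.

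The libraries carried the markers of the labelled line. All 8 LNCaP and luminal prostate markers exceeded 1 CPM in every library, with summed levels of 5170 to 5376 CPM in DHT and 3311 to 3388 CPM in DHT+WBM. The part of this lower sum in the members' changes was not tested. Basal markers, in whose cells GSTP1 is normally expressed, summed to at most 0.382 CPM, with KRT5 at 0 reads, and leukocyte markers to at most 0.103 CPM. Of the 5 fibroblast markers 2 exceeded 1 CPM in every library, COL1A1 and COL3A1, with a summed level of 13.8 to 15.4 CPM in DHT and 13.0 to 14.2 CPM in DHT+WBM, and COL1A2 was at 0 reads. Of the 3 endothelial markers VWF alone exceeded 1 CPM in every library, and CDH5 was at 0. Among 4 genes of mesenchymal-type prostate cancer lines VIM stood at 237 and 238 CPM in the groups, while CAV1, CAV2 and CD44 averaged at most 1.00 CPM in either group. TMM factors ran from 0.979 to 0.987 in DHT and from 1.011 to 1.019 in DHT+WBM, so they separated the groups.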

How the data were processed

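RNA sequencing libraries of LNCaP cells, 3 with DHT and 3 with DHT+WBM, were grouped by sample title, and columns of the table were matched by the code in the title. The table that the authors deposited holds raw counts of reads for each gene, its length and its position. The submitters' processing notes name edgeR 3.28.1, HTSeq 0.6.0, STAR 2.6.0 and bcl2fastq 2.18.0.12, without roles, and the build hg19. The annotation, filters and strand setting of the counting were not given in the sources used here.

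The whole table was fitted in R 4.3.3 with edgeR 4.0.16: filterByExpr (minimum count 10, minimum total 15), TMM factors and the two-sided quasi-likelihood F-test of DHT+WBM against DHT, with Benjamini-Hochberg adjustment over 13466 genes. The SE is the size of the log2 fold change divided by the square root of F. CPM uses TMM-scaled library totals, and per-length levels divide it by the deposited length. The fit was tested on simulated counts with known changes. Libraries of a group differed by more than sampling noise, with a chi-square per degree of freedom of 1.70 to 4.15 between pairs.

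The settings varied were the scaling (RLE, upper-quartile, or library totals alone), the filter (none, or 1 CPM in 3 libraries), the tool (DESeq2 1.42.0, or voom in limma 3.58.1), a block for replicate number, a threshold of 0.01, and leaving out each library. For named genes of the lists they were added after the data were seen. The 10 members and the gene lists were chosen with earlier results of these data known, so their counts are no independent support. Named list genes were the 2 called genes with the smallest adjusted p in each direction and, where few, the uncalled ones. Some genes that this rule names are not reported here. All tested further family genes were named. The neighbours of GSTP1, the single cell markers and GCLC were chosen for naming after the data were seen. The likeness to GSTA4 used log2(CPM + 0.5) minus each gene's mean.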

Additional observations from a re-analysis of the deposited data

How the results depend on the processing

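Across 15 alternatives 6345 to 8109 genes were called, against 7837 in the reported fit, and the members called higher numbered 4 or 5 and those called lower 2. The log2 fold changes of GSTA4, GSTK1, GSTM3, GSTZ1, MGST1 and MGST2 kept their direction and their call in all 15, with GSTA4 between 0.72 and 0.81, MGST1 between 0.48 and 0.57, GSTZ1 between -0.58 and -0.48 and MGST2 between -0.33 and -0.25. GSTO1 kept its direction, between 0.10 and 0.16, and its call in 7 of 15, losing it also at an adjusted p under 0.01. Under other scalings and with single libraries left out, the mean GSTP1 level lay between 0.0490 and 0.0739 CPM in DHT and between 0 and 0.122 CPM in DHT+WBM, where leaving out replicate 1 left no read. With library totals only, higher genes made up 59.4% of calls against 50.1% in the reported fit, and MGST3 was then called (log2 fold change 0.13, edgeR adjusted p = 0.0271). Same-numbered libraries correlated by 0.0479, 0.0792 and 0.0211 in their deviations from the group means. Pairs with unlike numbers ran from -0.113 to 0.0699, and DHT replicate 3 correlated best with DHT+WBM replicate 1. With 3 libraries in a group, these values cannot settle whether the numbers pair the libraries. With the replicate number as a block 8109 genes were called and the same 5 and 2 member calls resulted. Depth limits GSTP1 and GSTM2 most, with at most 5 and 9 reads in a library, and GSTM4, with no read, gave no comparison.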
